A study of Saccharomyces cerevisiae with 1245 samples.

Results

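The origin recognition complex and the MCM helicase were profiled in budding yeast, Saccharomyces cerevisiae, by ChIP-exo. In this assay a nuclease digests immunoprecipitated chromatin until a crosslinked protein stops it, and each listed peak is a single base position. The libraries were chosen by target name among ChIP-exo samples without heat shock. The names sought were subunits of the origin recognition complex (Orc) and of the MCM helicase, the loading factor Cdc6 and the activation factor Cdc45. This gave 13 of the 1245 samples of the series, and 7 targets: Orc1, Orc2, Orc4, Orc5 and Orc6 with 2 libraries each, Cdc46 (also called Mcm5) with 2, and Cdc47 (also called Mcm7) with 1. The other names sought are not analysed here. Every one of the 13 samples carried a TAP tag on the target and came from cells grown in YPD, a rich glucose medium, at 25 °C to an optical density of 0.8 to 1.0, then crosslinked with 1.0% formaldehyde, per the labels. The reference was the other targets profiled by ChIP-exo without heat shock, which brought the lists used to 1115 and the targets to 716. Most reference samples also carried a TAP tag, but not all did. Some were labelled HA-tag, and others by an antibody source such as Abcam, Millipore or the Weil Lab. The comparisons with other targets were not limited to TAP-tagged samples. Nothing in the labels says that the 2 libraries of a target came from separate cultures, so their spread may be technical, and no control for the peak lists is named.

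DNA replication in yeast starts at defined places, the origins. Orc binds origin DNA and, with Cdc6, loads the ring-shaped MCM helicase around it in an inactive form. The helicase is later activated, among other factors by Cdc45, and unwinds the DNA ahead of the polymerases. Orc also binds the silencers beside the silent mating-type loci, where the Sir proteins assemble silent chromatin.

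The lists differed in length between subunits. Orc1 had 78 and 65 peaks, Orc2 286 and 211, Orc4 320 and 439, Orc5 166 and 207, and Orc6 257 and 331. Orc1, the subunit that binds and hydrolyses ATP to drive loading, had the shortest lists of the complex. Cdc46 had 351 and 548 peaks, and Cdc47 had 7. The depth of sequencing behind each list is unknown, and an empty place shows only that no peak was listed there.

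Peaks of the 10 Orc libraries lying within 100 bp of a neighbour were joined into 735 places. A subunit was counted at a place when either of its libraries had a peak there. The number of subunits was 1 at 387 places, 2 at 103, 3 at 73, 4 at 85 and 5 at 87. The 245 places with at least 3 of the 5 subunits are called shared.

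Of the shared places, 39 were widely listed, meaning that at least 10% of the other targets also had a peak within 100 bp. These lay inside coding genes in 34 cases, and 9 lay at the repeated CUP1 region of chromosome VIII. The remaining 206 shared places are called selective. At a selective place a median of 1 other target had a peak, 61 places had 0 other targets, and 144 had at most 2. Both sets are counted below, and the description of positions rests on the selective one, a choice made after the lists were seen.

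The second library of Orc6 stood apart from the other Orc libraries. Only 23.3% of its peaks lay at shared places, against 53.5% to 94.9% in the other Orc libraries, and 70.4% of its peaks were inside coding sequence. Its median score was 97, the lowest of the 10, and it had no peak at the highest deposited score of 1000, which was also so in both Orc1 libraries, with median scores of 145 and 121. Of its 254 peaks away from shared places, 209 (82.3%) were in coding sequence. The second library of Orc4 came next, with 43.5% of peaks in coding sequence and 25.5% of peaks at widely listed positions. Without the second Orc6 library 229 places were shared and 206 were selective, of which 204 had Cdc46.

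**Figure D1:**
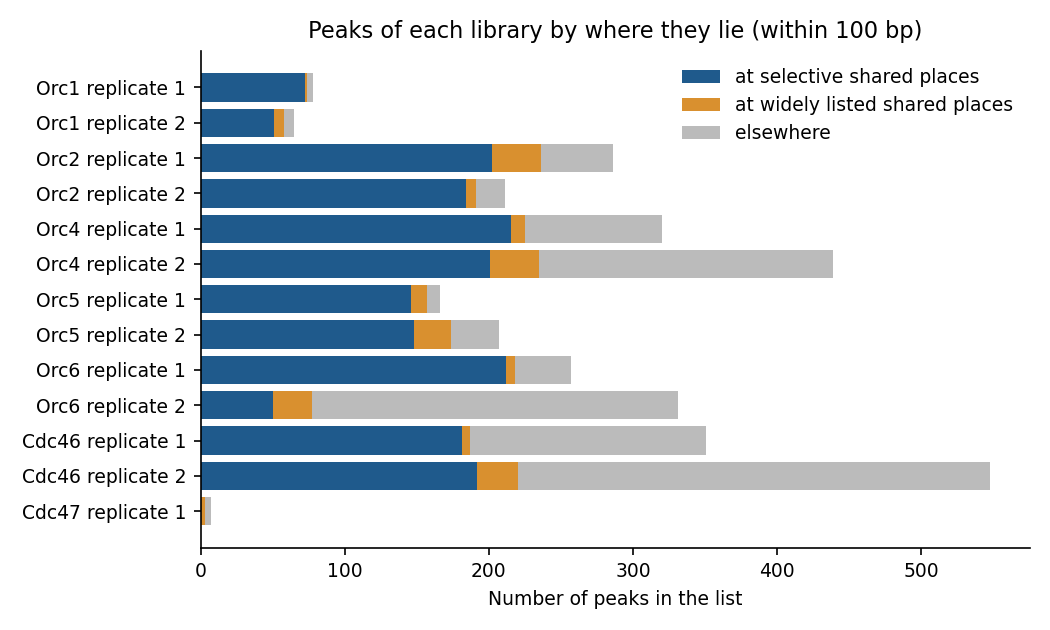
Number of peaks in each of the 13 lists, divided by place: within 100 bp of a selective shared place (blue), within 100 bp of a widely listed shared place (orange) or elsewhere (grey). Most peaks of Orc1, Orc2, Orc5 and the first Orc6 library are blue, the second Orc6 library is mostly grey, and Cdc47 has 7 peaks and none in blue.

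The subunits differed in how many of the 206 selective places they were listed at. Orc6 was listed at 206 (100%), Orc4 at 205 (99.5%), Orc2 at 203 (98.5%), Orc5 at 160 (77.7%) and Orc1 at 81 (39.3%). Orc6 was at every selective place through its first library, while its second library was listed at 50 of them. The places with few subunits are therefore mainly those without Orc1 and Orc5, the subunits with the shortest lists. Peaks at selective places ranked higher by score within their own list than peaks elsewhere, with mean score ranks on a percentile scale of 61.9 and 21.4 in the first Orc2 library and 56.6 and 19.1 in the first Orc6 library. In all 10 Orc libraries the mean rank was higher at selective places, which is a description, since the places were chosen by the same peaks.

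Peaks of different subunits lay within a few bases of each other in most libraries. At the 201 selective places where both had a peak, the first libraries of Orc2 and Orc4 lay a median of 2 bp apart, and exactly 2 bp apart at 114 of them (56.7%). The second Orc2 and the first Orc5 library were at the identical position at 78 of 140 places (55.7%). Replicates of a single subunit also had fixed offsets. Those of Orc2 lay exactly 4 bp apart at 104 of 183 places (56.8%), and those of Orc4 exactly 3 bp apart at 67 of 198 (33.8%). Offsets of this size thus occurred between libraries of the same subunit, and they are not read as distances between subunits. Distances were larger for the second libraries of Orc1, Orc5 and Orc6: replicates of Orc1 lay a median of 23 bp apart at 46 places, replicates of Orc5 23 bp apart at 139 places, and replicates of Orc6 24 bp apart at 51 places. The files hold no strand, so the side on which one subunit lies cannot be given relative to the origin.

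The gene context of Orc peaks differed from that of other targets. For each target the share of peaks in each of 7 features was averaged over its libraries, and the 5 Orc targets were compared with the 458 other targets that had at least 20 peaks in a library, in two-sided permutation tests over targets with 100000 resamples and Benjamini-Hochberg adjustment over the 7 features. Of the 7 features, 3 passed an adjusted p of 0.05 (42.9% called), 2 of them with higher Orc shares (28.6%). The features are tied to each other, so these are not separate results. Convergent gaps overlap with the other features. Those others divide all peaks among them, so a lower coding share goes with higher shares elsewhere. The intergenic share outside promoters was 52.7% for Orc1, 47.4% for Orc2, 41.5% for Orc4, 44.1% for Orc5 and 32.5% for Orc6. It averaged 43.7% ± 7.49 in Orc targets and 12.1% ± 10.002 in other targets (SD, n = 5 and 458), a difference of 31.6 percentage points in the permutation test (p = 1e-05, the smallest it can give, adjusted p = 7e-05). All 5 Orc targets lay above the median of the other targets, which was 9.37%. The 5 subunits belong to 1 complex and share places, so they are not independent units and the p-values of these tests are too small. Taken as 1 unit, the Orc mean was reached or passed by 7 of the 458 other targets (1.53%) for intergenic sequence and by 15 (3.28%) for convergent gaps.

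Gaps between convergent genes, where the 2 flanking genes both end, held a large part of these peaks. The share was 14.9% for Orc1, 24.3% for Orc2, 23.3% for Orc4, 19.8% for Orc5 and 15.6% for Orc6. It averaged 19.6% ± 4.28 in Orc targets and 5.34% ± 5.72 in other targets (SD, n = 5 and 458), with 5 of 5 Orc targets above the other targets' median of 3.39% (permutation test, adjusted p = 0.00028). The 2 Cdc46 libraries, which were not in that test, had 31.3% and 24.3% of their peaks in convergent gaps.

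For coding sequence 70 of the 458 (15.3%) were at or below the Orc mean. Coding sequence held a smaller share of Orc peaks, 7.31% for Orc1, 12.6% for Orc2, 26.0% for Orc4, 14.4% for Orc5 and 39.9% for Orc6. The means were 20.03% ± 13.01 in Orc targets and 49.1% ± 25.6 in other targets (SD, n = 5 and 458; difference -29.1 points, permutation test, adjusted p = 0.0194). This call was lost without widely listed places (adjusted p = 0.0831), without all first libraries (0.373), without the first Orc4 library (0.0539) and without the first Orc6 library (0.077). The share in promoters, the 500 bp before a coding start, averaged 26.1% in Orc targets and 27.6% in other targets (permutation test, adjusted p = 0.872). The share within 10000 bp of a chromosome end averaged 5.06% in Orc targets and 0.629% in other targets and did not pass the test (adjusted p = 0.0689).

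**Figure D2:**
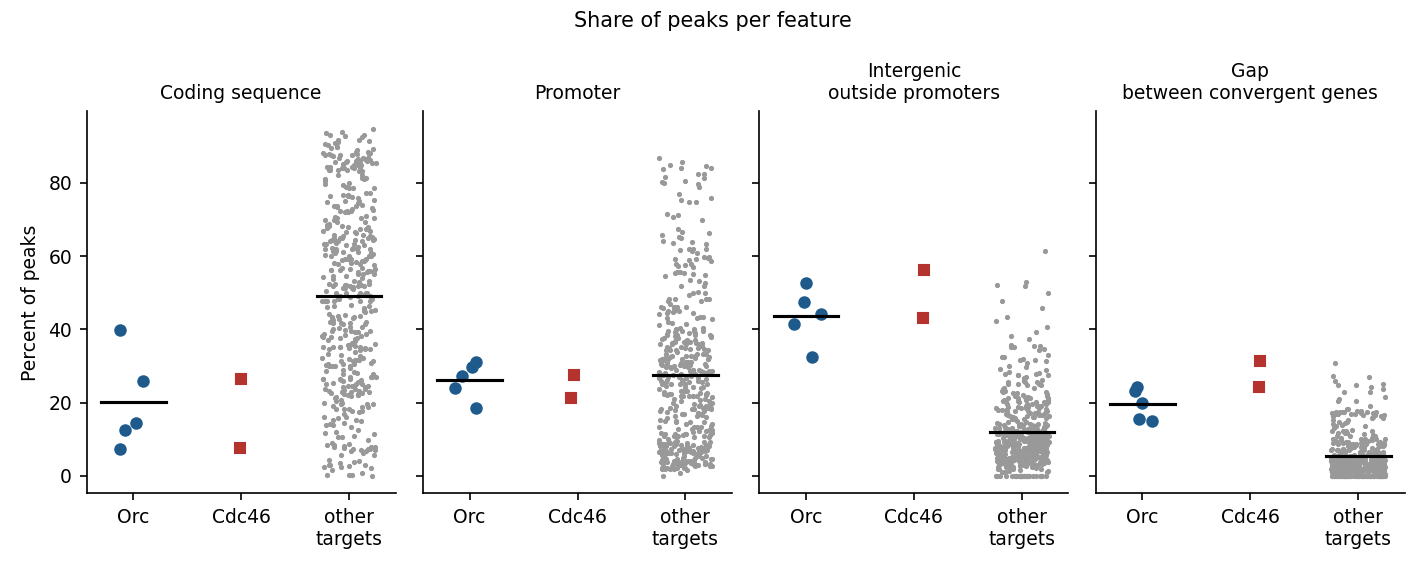
Percent of peaks in coding sequence, promoters, intergenic sequence outside promoters and gaps between convergent genes, for the 5 Orc targets (blue, mean of 2 libraries each), the 2 Cdc46 libraries (red) and the 458 other targets (grey). Black lines are means; the Orc means are 43.7% and 19.6% in the 2 panels on the right, against 12.1% and 5.34% in other targets.

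The selective places were then taken one by one. Inside a coding gene lay 5 of 206 (2.43%), while coding genes take up 72.9% of the annotated length. Over all 245 shared places the count was 39 (15.9%), since 34 of the widely listed places are in coding genes. They lay between tandem genes in 97 cases (47.1%, against 13.7% of the length), between convergent genes in 60 (29.1%, against 4.32%) and between divergent genes in 38 (18.4%, against 8.83%), and 6 lay beyond the outermost gene of a chromosome. The 5 in coding genes were in DTR1, MSH4, HUG1, ATR1 and GAS4. MSH4 acts in meiotic recombination and HUG1 is induced by DNA damage. Because the places were chosen by agreement between libraries, these shares are a description.

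Of the 206 selective places, 109 (52.9%) were intergenic outside promoters, against 9.39% of the length, and 65 (31.6%) were in promoters, against 15.1%. Between tandem genes, 69 of 97 places were nearer the end of the upstream gene than the start of the downstream gene, at a median of 268 bp from that end and 516 bp from that start. Between divergent genes the nearer start was a median of 400.5 bp away. Between convergent genes the nearer gene end was a median of 137.5 bp away. The gaps that held places had a median width of 1277 bp between divergent genes, 937 bp between tandem genes and 539.5 bp between convergent genes, against 874, 724 and 444 bp as the median over all intergenic bases of each kind.

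The contexts were also counted by number of subunits, without a test. Convergent gaps held 16 of 49 selective places with 3 subunits (32.7%; exact binomial 95% interval 19.9 to 47.5), 29 of 77 with 4 (37.7%; 26.9 to 49.4) and 15 of 80 with 5 (18.8%; 10.9 to 29.0). Tandem gaps held 19 of 49 (38.8%), 34 of 77 (44.2%) and 44 of 80 (55.0%). The places listed for all 5 subunits had the smallest convergent and the largest tandem share of the 3 sets. Intervals here cover counting error only.

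Selective places were spread along all 16 chromosomes. Neighbours on the same chromosome lay a median of 51841.5 bp apart (exact 95% interval 45880 to 56809), with quartiles of 30238 and 80089 bp. The interval treats the distances as independent and does not cover variation between libraries. The density per 100000 bp went from 1.10 places on chromosome XV to 2.85 on chromosome III, which holds the mating-type loci. Only 12 of 190 distances were under 10000 bp, and 28 were over 100000 bp. The longest stretch without a selective place ran 343385 bp on chromosome XIII, between the place at FDO1 and NDE1 and the place at GLC8 and ELP6.

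Pairs under 1000 bp apart occurred 7 times, each within a single gap. The closest pair lay 148 bp apart between HMRA1 and GIT1 on chromosome III. Others were 196 bp apart between MID2 and RPS25B on XII, 222 bp between GMC1 and GIN4 on IV, and 259 bp between FKH2 and YNL067W-B on XIV. All 245 shared places, widely listed ones included, had a median distance of 42537 bp.

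Cdc46 was listed at nearly every selective Orc place. A Cdc46 peak lay within 250 bp at 204 of 206 (99.0%), and both Cdc46 libraries had one at 196 (95.1%). Over all 245 shared places the count was 236 (96.3%; exact binomial 95% interval 93.1 to 98.3), and at the 39 widely listed ones it was 32 (82.1%). Widely listed places are by definition common to many of the 709 other targets.

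The share with Cdc46 went with the number of Orc subunits. Among places that were not widely listed it was 111 of 310 (35.8%) with 1 subunit, 33 of 57 (57.9%) with 2, 48 of 49 (98.0%) with 3, 77 of 77 (100%) with 4 and 79 of 80 (98.8%) with 5. Most of the 387 places with a single subunit were of Orc6 alone (204, of which 37 had Cdc46) or Orc4 alone (150, of which 82 had Cdc46). Orc6 replicate 2 had 181 such places, 141 of them in coding genes, and 29 of the 181 had Cdc46. Orc4 replicate 1 had 58 such places, of which 6 were in coding genes and 53 had Cdc46, and Orc4 replicate 2 had 112, of which 87 were in coding genes and 49 had Cdc46.

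**Figure D3:**
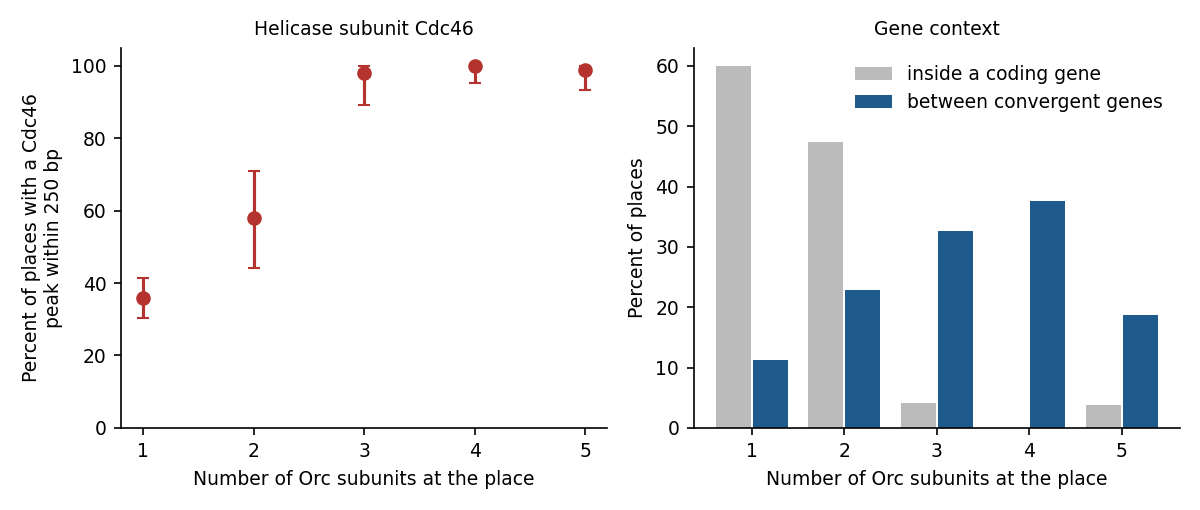
Left, percent of places with a Cdc46 peak within 250 bp by the number of Orc subunits, with exact binomial 95% intervals, at places that were not widely listed. Right, percent of the same places inside a coding gene (grey) and between convergent genes (blue); the coding share is 60.0% at 1 subunit and at most 4.08% at 3 or more.

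Cdc46 peaks were spread more widely around the Orc position than Orc peaks were. Within 250 bp of a selective place, the median distance from the centre was 44 bp in the first Cdc46 library (201 peaks; exact 95% interval 37 to 50) and 40 bp in the second (223 peaks; 36 to 45). Each interval treats the peaks of a library as independent and does not cover the difference between libraries. In the first library 26.4% of these peaks were within 10 bp of the centre, and in the second 10.3%. Peaks of the 10 Orc libraries define the centre and are closer to it by construction. Measured directly, Cdc46 replicate 1 lay a median of 33.5 to 47 bp from each Orc library and Cdc46 replicate 2 a median of 30 to 43.5 bp. The commonest distance between Cdc46 replicate 1 and Orc4 replicate 1 was 1 bp, at 32 of 196 places, so the first Cdc46 library had a group of peaks on the Orc position beside the wider spread.

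The 2 Cdc46 libraries lay a median of 18.5 bp apart at 196 places. Where both were over 20 bp from the centre, they fell on the same side at 101 of 109 places. Their distance from each other had an upper quartile of 33 bp, and peaks that close can hardly fall on opposite sides under this filter. The count therefore shows little beyond the closeness of the 2 libraries. The first library had 1 peak at 190 places and 2 peaks at 7, and the second had 1 peak at 176 and 2 at 27. Most places thus had 1 Cdc46 peak per library.

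**Figure D4:**
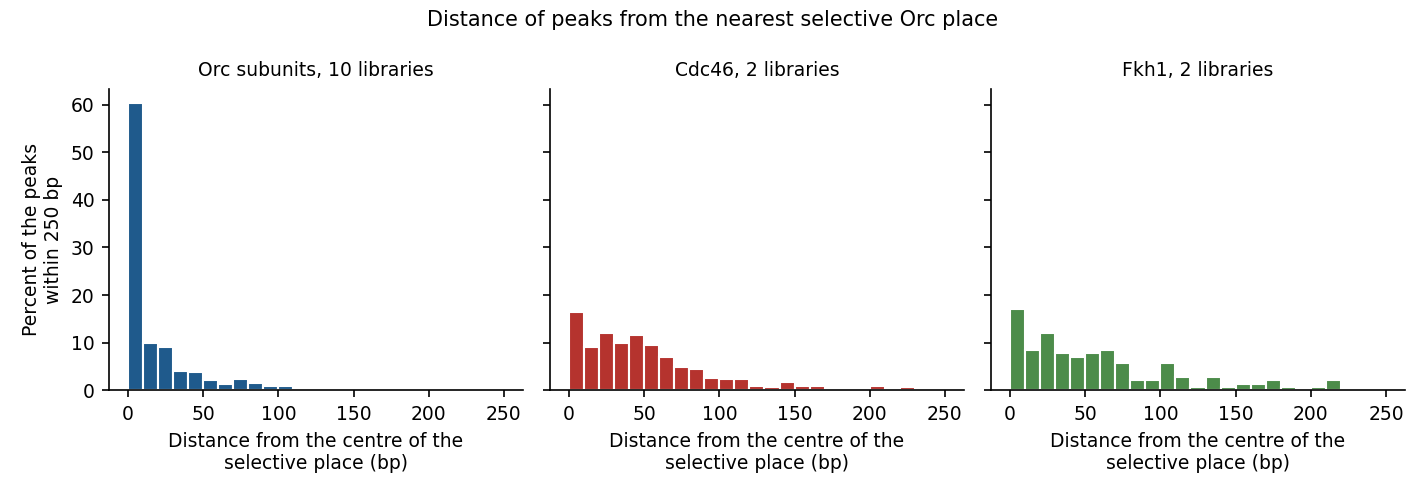
Distance in bp of peaks from the centre of the nearest selective Orc place, as percent of the peaks within 250 bp in steps of 10 bp, for the 10 Orc libraries, the 2 Cdc46 libraries and the 2 libraries of the transcription factor Fkh1. Orc peaks define the centre; Cdc46 peaks spread over the first 100 bp with medians of 44 and 40 bp, and the first step is the fullest in every panel.

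The 10 places with the highest mean score rank over the Orc libraries, among the 84 with 5 subunits and both Cdc46 libraries, were listed in 10 of 10 Orc libraries. The first lay at position 287576 of chromosome V, in the 3327 bp gap between the divergent genes ICL1, which encodes isocitrate lyase of the glyoxylate cycle, and RRT13. Cdc46 was 52 and 56 bp from its centre on the same side, and 2 other targets had a peak there. The second, at 204607 of X between YJL113W and MDV1, a gene of mitochondrial fission, had Cdc46 at offsets of -70 and 27 bp, on opposite sides.

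The next was at 695422 of XVI between TKL1, which encodes transketolase, and OPY2, with Cdc46 at 115 and 111 bp. At 63367 of II, between YBL086C and BOI1, the offsets were -100 and -76 bp. At 1447416 of IV the place lay between SEC20, a gene of vesicle traffic, and LCD1, a gene of the DNA damage checkpoint, with 0 other targets. Among the remaining 5, the first was at 485106 of VII between BRP1 and YGL006W-A, and the next at 462599 of IV beside TRP1. Another was at 215026 of I, 7010 bp from the flocculin gene FLO1 and 5172 bp from YAR064W. The last were at 499050 of XIV between FKH2 and YNL067W-B, and at 448188 of XI beside ECM9. All positions are 1-based on sacCer3. Of the 10, 4 lay between divergent genes, 6 between tandem genes and 0 between convergent genes.

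The TRP1 place is the locus of ARS1, an origin long used as a model. It lay 83 bp past the end of TRP1, a gene of tryptophan synthesis, and 835 bp before GAL3. Peaks of all 10 Orc libraries fell between 462576 and 462623, with Cdc46 at 1 and -25 bp from the centre and Fkh1 in both its libraries.

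The silent mating-type loci on chromosome III had Orc on both sides. Left of HML, a place at 11264 had 4 subunits in 8 libraries, and right of it a place at 14697 had 5 subunits in 10 libraries. Left of HMR, a place at 292677 had 5 subunits in 9 libraries, and right of it places at 294797 and 294945 had 3 and 4 subunits. Both Cdc46 libraries had a peak within 250 bp of each of these 5 places, but at the 2 right of HMR, 148 bp apart, these were the same Cdc46 peaks. Sir2, a histone deacetylase, and Sir3 and Sir4, structural proteins of silent chromatin, all had a peak within 250 bp of each.

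Selective places near chromosome ends were unevenly placed. Within 20000 bp of an end there were 22, of which 17 were at the high-coordinate ends, on all 16 chromosomes, and 5 at the low-coordinate ends, on 4 chromosomes. All 1115 lists together showed 4114 peaks at the high-coordinate ends and 1888 at the low-coordinate ends. Ends were taken from the last gene or peak because chromosome lengths were not used here, and how reads from the repeated end sequences were assigned was not tested. Of the 22 places, 16 had a Sir target within 250 bp and 15 had Fkh1, whereas 5 and 51 of the 184 places farther in had them.

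Orc places without the helicase subunit were rare. Of the 245 shared places, 6 had no Cdc46 peak within 500 bp, and 5 of those were widely listed places inside coding genes. At the ones in YER138C and YPR158C-D, the second Cdc46 library had a peak just past that cutoff, at offsets of -565 and -595 bp. The only selective place among the 6 was at 462998 of chromosome XI. It lay in the 1262 bp gap between the divergent genes FPT1 and PRY2, which encodes a sterol-binding protein. It had all 5 subunits in 9 of 10 libraries and a mean score rank of 79.3. The nearest Cdc46 peaks were far away, at offsets of -5505 and -5522 bp.

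Cdc46 also had places of its own. The 2 Cdc46 libraries had 334 places in common, of which 260 lay within 100 bp of some Orc peak and 197 within 250 bp of a shared place. A further 74 lay within 250 bp of an Orc peak but of no shared place. The 62 that were more than 1000 bp from any Orc peak (18.6%) lay between tandem genes in 31 cases, between convergent genes in 22 and between divergent genes in 2, and inside a coding gene in 7. Few other targets were listed at them, with a median of 1 and 28 places at 0.

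The highest-ranked of these by score was at 210850 of XVI between PPQ1 and CBC2, a gene of the nuclear cap-binding complex, 48339 bp from the nearest Orc peak. The others named by the rule were at 1110020 of IV between the asparaginase gene ASP1 and MRPL35, at 139764 of XII in the sporulation gene SPO75, at 241117 of VII between HUL5 and YGL140C, and at 161784 of X between MRS3 and YJL132W. In the first Cdc46 library peaks at these 62 places had a median score rank of 22.4, against 62.3 at selective Orc places. In the second library both medians were 66.3, the rank shared by the 67.3% of its peaks at the highest score.

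Places with 1 or 2 Orc subunits and both Cdc46 libraries numbered 102, widely listed ones left out. Of these, 33 (32.4%) were between convergent genes and 11 were inside a coding gene. Fkh1 was listed at 18 of them (17.6%).

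Cdc47 could not be placed at origins from its list. Its 7 peaks all lay between 472516 and 490367 of chromosome XII, in or beside the ribosomal DNA, and 48.1% to 70.7% of the other targets had a peak within 100 bp of each. None was at a selective place.

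Other targets were set against the places by the share of their own peaks within 100 bp. With all 245 shared places, 176 of 458 other targets (38.4%) had at least 10% of their peaks there. Selective places were chosen as those where under 10% of the other targets had a peak. A lower count there therefore follows in part from that choice. With the 206 selective places, 2 of 458 had at least 10% of their peaks there (0.437%), and 306 had 0. The 2 were Sir4, with 30.8% and 5.65% of its peaks in its 2 libraries, and Sir2, with 18.3% and 6.93%. Cdc46 had 51.6% and 35.0%.

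The silencing list held these 2 among 10 targets with at least 20 peaks. Rif1, which binds telomeres and limits origin firing, followed with 11.6% and 6.90% of its peaks, and Sir3 had 12.4% and 1.20%. Outside this list the largest mean shares were those of Asf2 (7.87% and 7.81%), Fkh1 (6.27% and 7.68%) and Sko1 (6.62% and 2.74%). The 2 libraries of each Sir protein differed widely in this share, and their lists differed in length, with 52 and 124 peaks for Sir4. At least 1 Sir protein lay within 250 bp of 21 selective places, all 3 at 18, and Fkh1 was at 17 of the 21.

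Fkh1, a forkhead transcription factor, was at more selective places than any other target with at least 20 peaks. Its libraries had a peak within 100 bp at 61 and 46 of the 206 places, out of 1037 and 625 peaks. Either library was there at 66 places (32.0%) and both at 41. Fkh2, its paralogue, was at 1 and 1 place, out of 549 and 197 peaks. Away from chromosome ends Fkh1 was at 51 of 184 places (27.7%). Next by number was the RNA 3'-end processing factor Rna14, at 31 and 4 places out of 1911 and 378 peaks. Ssl2, a helicase of TFIIH, followed at 17 and 14 places out of 4092 and 3965 peaks.

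Fkh1 peaks were spread around the Orc position as well, with 12 peaks of each library in the first 10 bp. Their median distance from the centre was 53 bp in the first library (89 peaks within 250 bp) and 35.5 bp in the second (52 peaks). Where both were over 20 bp from the centre, Fkh1 was on the same side as Cdc46 at 17 of 28 places in the first library and at 11 of 17 in the second. At the 62 Cdc46 places far from Orc, Fkh1 was listed at 8 (12.9%) in its first library and at 5 in its second.

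**Figure D5:**
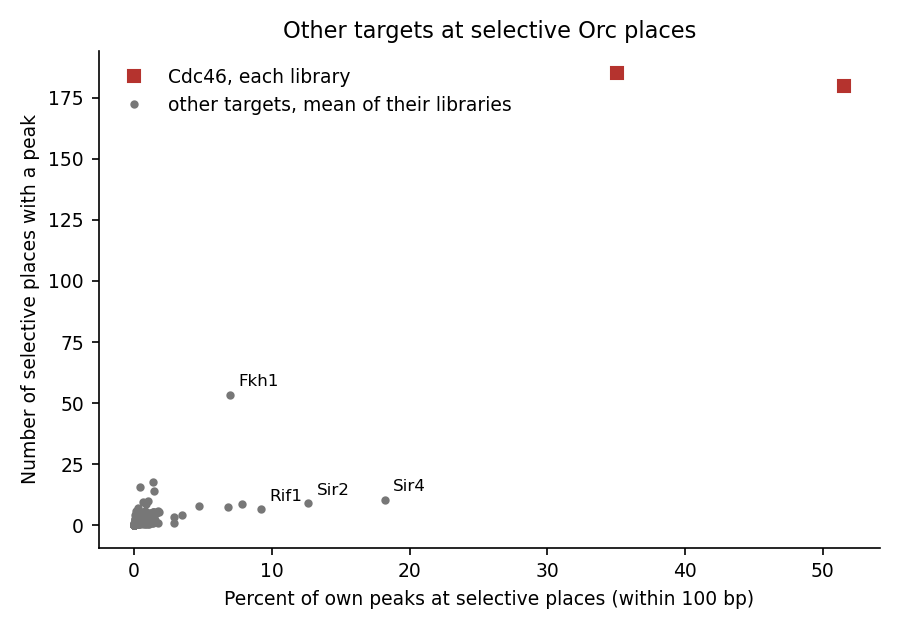
Number of the 206 selective places with a peak within 100 bp against the percent of a target's own peaks at them, for the 2 Cdc46 libraries (red) and the 458 other targets (grey, mean of their libraries). Cdc46 lies at 180 and 185 places; Fkh1 is the highest of the other targets by number, Sir4 and Sir2 by share.

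Other replication proteins were set against the same places. Of the replication and fork list, 6 targets had at least 20 peaks. All 6 had at least 10% of their peaks at the 245 shared places, beside 38.4% of all other targets. At selective places 0 of the 6 did, beside 0.437%. That share gives a count of 0 for a list of this size, so nothing is read from it. Dbf4, the regulatory subunit of the kinase that activates the helicase, had 24 of 177 peaks at shared and 0 at selective places, and 124 of its peaks (70.1%) lay at positions listed by at least 10% of the other targets. Rfc1, of the clamp loader, had 31 of 96 peaks at shared and 0 at selective places, and the topoisomerase TOP1 had 1 of 374 and 0 of 115 at selective places. The list of sequence-specific factors known at origins or silencers held 8 targets, with Fkh1 and Fkh2 described above. Reb1 was at 8 and 9 selective places, out of 860 and 1142 peaks. Abf1 was at 1 and 3, Rap1 at 2, 2 and 9, and Mcm1 at 3 and 0. Tbf1 and Cbf1 were at 0 in each library.

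The remaining lists had 0 targets with 10% of their peaks at selective places, a count that the share of 0.437% among all other targets gives for lists of this size, so nothing is read from it. At all shared places the count was 7 of 9 for cohesin and condensin, 1 of 5 for kinetochore proteins, 2 of 4 for histone chaperones, 4 of 6 for remodellers, 0 of 1 for repair proteins and 4 of 8 for the enzymes, beside 38.4% of all other targets.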

How the data were processed

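Peak lists of 1115 ChIP-exo libraries without heat shock were used. The submitters' processing notes name BWA, Picard, SAMtools and the sacCer3 build, without versions. The deposited score of each peak, a whole number from 66 to 1000 whose definition the authors' labels do not give, served only to rank peaks within a list. The lists carry the name ChExMix, per the file contents, and hold 1 bp positions with no strand. Genes, strands and gene gaps came from the RefSeq table of assembly R64. Chromosome ends are the last gene or peak.

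Peaks were linked at 100 bp, and libraries matched within 100 bp, or 250 bp for Cdc46. Python 3.11.15, NumPy 2.4.6 and SciPy 1.17.1 were used. The linking and the permutation test were tested on simulated data. Members and lists were chosen with earlier results of these data known. Places were named by rule: the 10 highest by score rank with 5 subunits and both Cdc46 libraries, those at HML, HMR and TRP1, up to 5 shared ones without Cdc46, and the 5 highest Cdc46 places far from Orc; targets by largest share or number. The places in coding genes, the longest gap and the close pairs were named after their values were seen. Alternatives changed distances, subunit number, peak minimum, promoter window, libraries and widely listed places.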

Additional observations from a re-analysis of the deposited data

How the results depend on the processing

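The higher Orc shares in intergenic sequence outside promoters and in convergent gaps kept direction and call under 21 of 21 alternatives each, with highest adjusted p of 0.00154 and 0.00525 in the permutation test. The lower coding share was -29.0 points and no longer called without widely listed places, and ranged from -38.2 to -16.0 when libraries were left out, which ended the call in 3 cases. The promoter difference, called in none, turned positive with at least 50 peaks per library (0.727), a 1000 bp window (9.60), only the higher-scoring peaks of each list (0.655), other targets of like peak number (1.16) and without the second libraries of Orc4 and Orc6 (1.42), and ran from -5.82 to 1.06 when libraries were left out. The rRNA difference was 0 without widely listed places. The chromosome end share passed with at least 5 peaks per library (4.61 points, adjusted p = 0.0469 in the permutation test).

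The number of shared places was 87 with 5 of 5 subunits, 121 with only the higher-scoring peaks, 135 when both libraries of a subunit were needed, and 154 to 246 when libraries were left out. Median spacing was 28036.5 bp with 2 subunits, 53446.5 bp with 4, 79118 bp with 5 and 51841.5 bp without widely listed places. The share with Cdc46 was 87.1% with 2 subunits, 99.4% with 4, 98.9% with 5, 88.6% within 100 bp, 99.0% without widely listed places, 98.6% without the second libraries of Orc4 and Orc6, and 84.1% to 98.7% when a library was left out, lowest without the second Cdc46 library. The median Cdc46 distance was 36 bp within 100 bp. The convergent share was 17.2% with 5 subunits, and the tandem share 32.5% with 2 and 52.9% with 5. The share inside coding genes was 31.6% with 2 subunits, 8.72% with 4, 9.20% with 5, 2.43% without widely listed places and 7.66% without the second libraries of Orc4 and Orc6. The count of other targets with 10% of their peaks at shared places was 115 at 50 bp, 373 with at least 5 peaks, 79 with at least 50, and 2 without widely listed places. The cause of these shifts was not tested.

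With the replicate number as a block (replicate block) the differences were 31.4 points for intergenic sequence, 14.2 for convergent gaps and -29.2 for coding sequence, and no call changed. Same-numbered Orc libraries did not deviate together in every pair (r from -0.962 to 0.993 over 10 pairs, median 0.437, 6 over 0.1). These values do not settle whether the numbers pair the libraries. Alternatives without the second libraries of Orc4 and Orc6, and without widely listed places for the Cdc46 share and the count of other targets, were chosen after seeing the data. The planned origin motif comparison was not run, as no sequence was used here. Unknown depth limits every absence of a peak.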
